A study of Arabidopsis thaliana with 2 samples.

Results

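Class III peroxidases are secreted heme enzymes that plants use to oxidise phenolic compounds and structural proteins of the cell wall with hydrogen peroxide. They can stiffen a wall by cross-linking lignin precursors and extensins, and they can also make reactive oxygen species that loosen it or that act in defence. In Arabidopsis thaliana they form a large gene family, many of whose members are known from roots, root hairs, vessels or wounded and infected tissue. The 59 genes described here were selected by gene identifier from a fixed list, and all 59 were found among the 33557 genes of both deposited tables. A further 14 genes of the family on chromosome 5 were not in that list and are described as a separate list. The family as a whole was chosen by its differences between the libraries: it was put forward with the counts of both in view, and AT1G05240 and AT1G05250 were already known to differ strongly. Levels and differences between the libraries are therefore given as a description, with no test.

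Messenger RNA was sequenced from whole 10-day-old seedlings of the Col0 background that carried the arp6-1 mutation, which affects a subunit of the SWR1 complex that deposits the histone variant H2A.Z. Both libraries are duplicates of 1 group, kept at 17 °C in long days and taken at the 15 min point of a shift experiment started 1 h after dawn, so every seedling here was mutant and unshifted. No wild type, other temperature or other time was analysed here, and the labels do not say that the duplicates came from separate cultures. ARP6 (AT3G33520), the mutated gene, had 7 counts in replicate 1 and 7 in replicate 2, and 0.339 and 0.560 TPM, with a span that overlaps another gene.

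The depth over all genes was 20249142 counts for replicate 1 and 12410991 counts for replicate 2. A mean count of at least 10 over both libraries was reached by 20568 genes and by 50 of the 59 peroxidase genes. Levels are the authors' TPM, transcript abundances scaled to a fixed sum per library and corrected for transcript length. Differences are log2 ratios of raw counts, replicate 2 over replicate 1, scaled between libraries by the TMM method, with an exact 95% interval that covers counting error only. Among all 20568 genes 10.5% were at least 2-fold lower in replicate 2 and 9.84% at least 2-fold higher. The duplicates thus differed in many genes, and the central 95% of log2 differences ran from -1.95 to 2.21.

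Together the 59 listed genes took nearly the same share of the transcripts in both libraries, while the makeup of that share differed. Their summed level was 2642 TPM in replicate 1 and 2571 TPM in replicate 2, or 0.264% and 0.257% of all TPM (0.261% ± 0.00500, SD, n = 2). The 5 members with the highest mean over both libraries supplied 53.1% of that sum in replicate 1 and 70.7% in replicate 2. The 6 members known from root hairs supplied 9.57% in replicate 1 and 1.52% in replicate 2. The median level of the 59 members was 3.39 on the log2(TPM + 1) scale, from library medians of 3.95 and 2.99, against 2.19 over all 33557 genes. At least 10 TPM were reached by 31 members in replicate 1 and 26 in replicate 2.

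**Figure D1:**
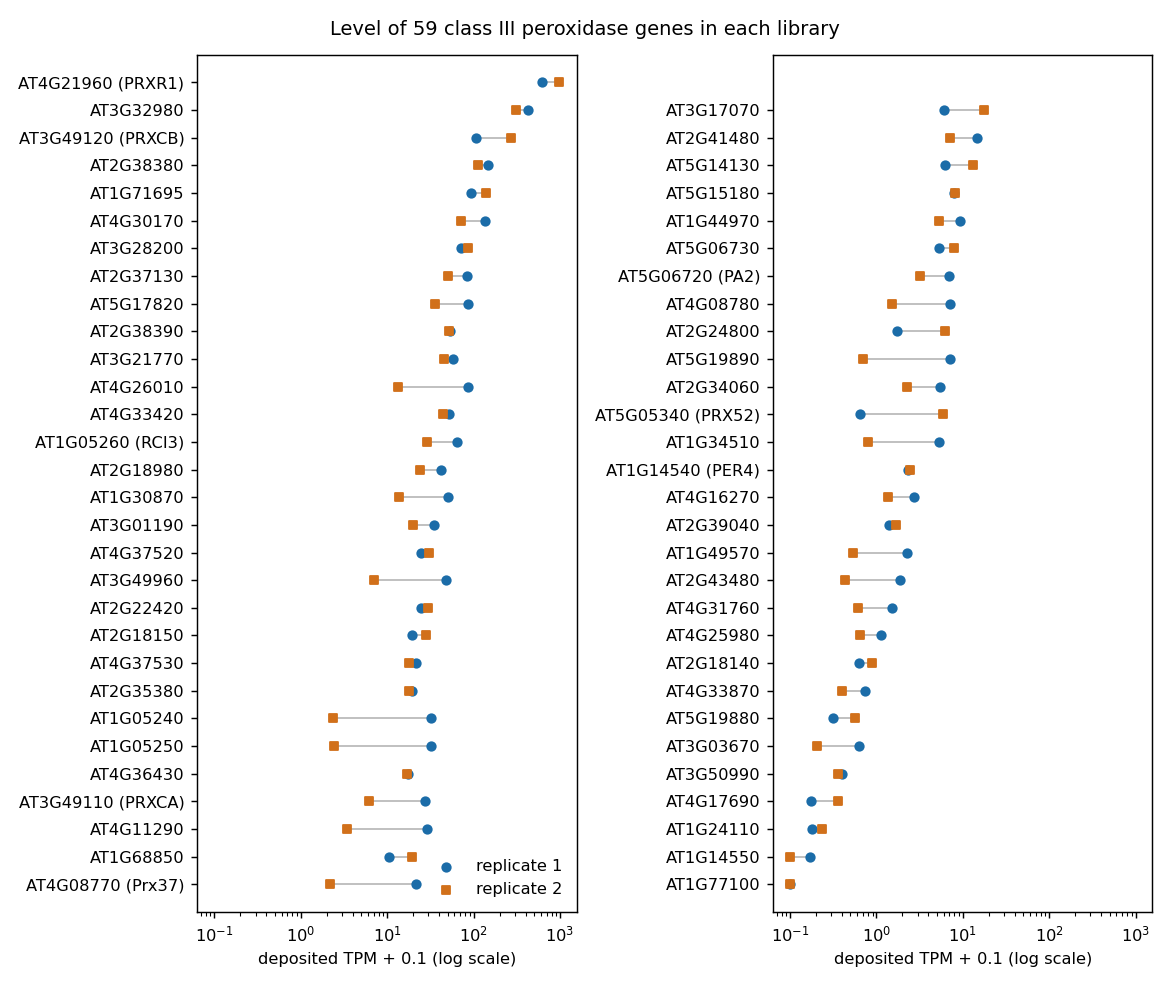
Deposited TPM plus 0.1 (log axis) of each of the 59 members in replicate 1 (blue circles) and replicate 2 (orange squares), sorted by their mean and joined by a grey line. PRXR1 leads in both libraries, and long lines with the orange square on the left mark members such as AT4G26010 and AT1G05240 that were much lower in replicate 2.

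PRXR1 (AT4G21960, chromosome 4, 11646174 to 11648462 in TAIR10) was the most abundant member in both libraries. It had 629 TPM in replicate 1 and 988 TPM in replicate 2 (808 ± 254, SD, n = 2), from 16877 and 15592 counts. PRXR1 alone made up 23.8% of the summed TPM of the 59 members in replicate 1 and 38.4% in replicate 2. AT3G32980 (chromosome 3, 13526097 to 13529997) came second in both libraries with 427 and 308 TPM, a log2 difference of -0.41 (95% interval -0.47 to -0.35). PRXCB (AT3G49120) was next by mean, with 108 and 268 TPM. AT2G38380 had 147 and 113 TPM, AT1G71695 had 92.7 and 140 TPM, and AT4G30170 had 136 and 71.2 TPM. These 6 genes were the members with a mean of at least 100 TPM. Of the 6, 0 were at least 2-fold lower in replicate 2 while 1, PRXCB, was at least 2-fold higher. Over all 20568 genes of any level the shares were 10.5% and 9.84%. AT3G28200 followed with 71.5 and 85.5 TPM, AT2G37130 with 82.9 and 50.1 TPM, AT5G17820 with 85.2 and 36.1 TPM, AT2G38390 with 52.9 and 52.1 TPM, AT3G21770 with 57.2 and 45.6 TPM, and AT4G26010 with 85.8 and 13.2 TPM. The order of members was otherwise similar in both libraries, with a Spearman's rho of 0.879 over the 59 genes, which share both libraries and are no replicates.

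Members of low level were many. Of the 59 genes, 27 had a mean below 10 TPM, and 9 missed the mean count of 10 and carry no call. AT1G77100 had 0 counts in both libraries. With the limit for an undetected gene set at 3 counts, its level was at most 0.148 CPM in replicate 1 and 0.242 CPM in replicate 2 (counts scaled to library size). AT1G14550 had 0 and 1 counts, and AT1G24110 had 1 and 1. AT4G17690 had 1 and 2 counts, AT5G19880 had 4 and 5, and AT2G18140 had 8 and 7. The remaining 3 without a call were AT3G50990 with 7 and 3 counts, AT3G03670 with 11 and 1, and AT4G33870 with 11 and 4. At these counts a difference between the libraries was not detectable.

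Of the 50 members with a call, 17 were at least 2-fold lower in replicate 2 and 5 at least 2-fold higher, or 34% and 10% of them, and 28 lay within 2-fold. The corresponding shares of all genes were 10.5% and 9.84%. At least 1.5-fold lower were 26 members and at least 1.5-fold higher 9, against 21.2% and 18.8% of all genes. At least 3-fold lower were 13 and at least 3-fold higher 3, against 4.38% and 4.94%. The median log2 difference of the 50 members was -0.68, against -0.01 over all 20568 genes. A mean count of 10 can be reached through the deeper replicate 1 alone. AT1G34510, AT1G49570, AT2G43480, AT4G31760 and AT5G19890 were called lower with fewer than 10 counts in replicate 2. Where at least 10 counts were required in both libraries, 12 of 44 members were at least 2-fold lower and 5 higher. The shares of all genes were then 8.23% and 9.35%. The median of the members was -0.34 with that minimum, and -0.42 over the 57 members with a count above 0 in both. For 12 of the 17 lower and 4 of the 5 higher members, the whole counting interval lay past 2-fold. By level, 0 of 6 members of at least 100 TPM, 10 of 26 between 10 and 100 TPM, and 7 of 18 with a call below 10 TPM were at least 2-fold lower. The shares of all genes at these levels were not computed, so no trend with level can be read from these counts. In RNA of whole seedlings fewer cells of a type and less RNA per cell cannot be told apart, which holds for every difference below.

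**Figure D2:**
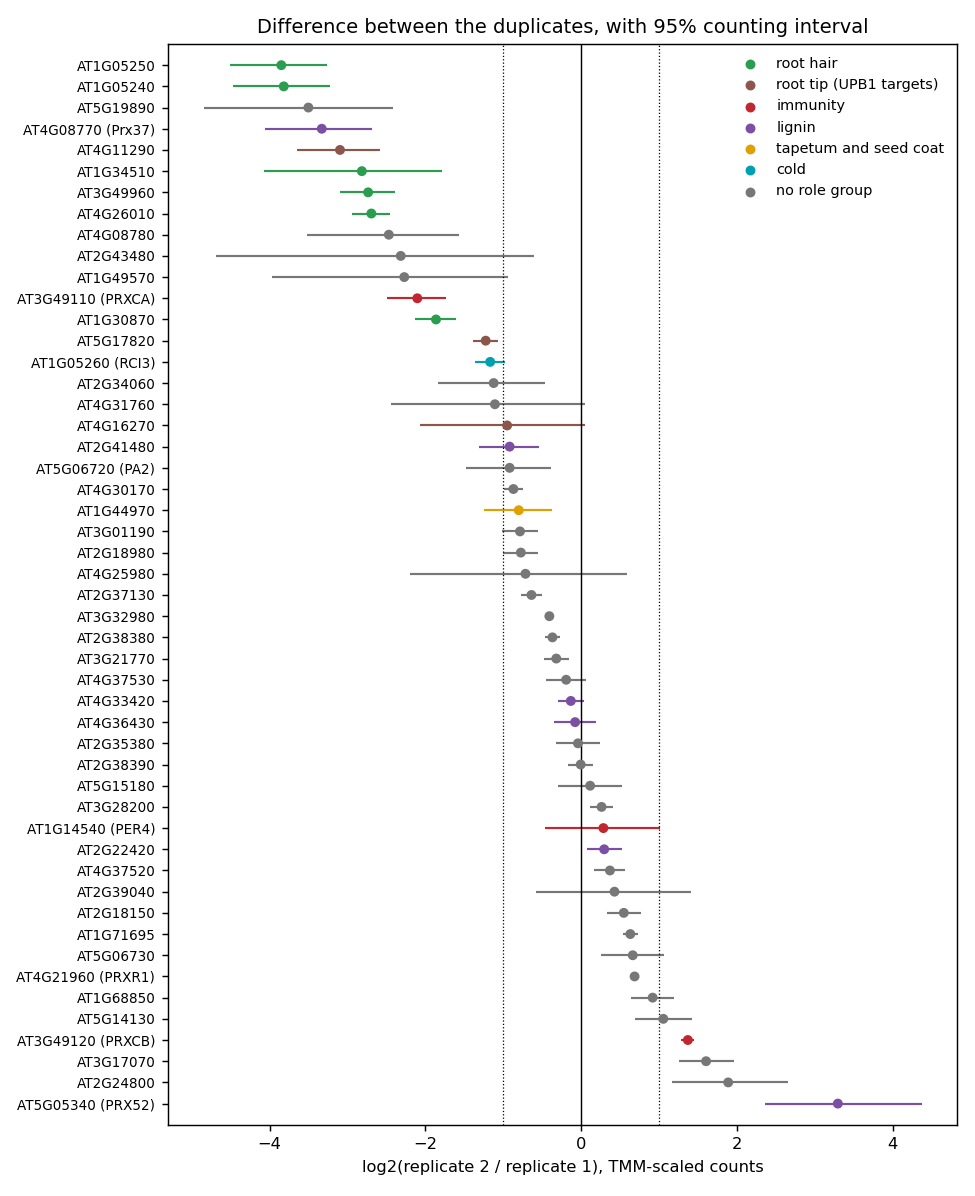
Log2 difference (replicate 2 over replicate 1, TMM-scaled counts) of the 50 members with a mean count of at least 10, sorted, with bars for the exact 95% counting interval and dotted lines at 2-fold. Colours give the role group, with AT1G05250 shown as root hair and PER4 as immunity although both are also in the lignin group. AT4G16270 is shown as root tip although it is also in the tapetum and seed coat group. All 6 root hair genes (green) lie left of the lower dotted line, and PRX52 is the farthest right.

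All 6 members of the root hair group were at least 2-fold lower in replicate 2, against 10.5% of all genes. The group was chosen with earlier results of these data known, so this count is only a description. AT1G05240 and AT1G05250, already known to differ and read below as 1 value, enter it as 2 genes, as they do in the median and sums. Root hairs are tubular outgrowths of root epidermal cells, and peroxidases in their wall are known to set the balance between extension and stiffening. AT1G05240 (chromosome 1, 1521137 to 1522681) had 32.3 TPM in replicate 1 and 2.26 TPM in replicate 2, from 589 and 24 counts. AT1G05250 (chromosome 1, 1525601 to 1527234) had 32.1 and 2.30 TPM, from 602 and 24 counts. Both were thus high in replicate 1 and low in replicate 2, 14.1-fold and 14.4-fold by scaled counts (log2 differences -3.82, interval -4.47 to -3.23, and -3.85, interval from -4.5 to -3.26). AT4G26010 (chromosome 4, 13200593 to 13201941) had 85.8 and 13.2 TPM from 1666 and 148 counts, 6.47-fold lower (interval -2.95 to -2.45 on the log2 scale). AT3G49960 had 47.5 and 6.92 TPM, 6.66-fold lower. AT1G34510 had 5.19 and 0.706 TPM, 7.04-fold lower from only 98 and 8 counts. The smallest difference of the 6 was that of AT1G30870, with 49.9 and 13.8 TPM, 3.64-fold lower. The median of the 6 was -2.78 on the log2 scale, and their summed level was 253 TPM in replicate 1 and 39.2 TPM in replicate 2.

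AT1G05240 and AT1G05250 are a pair whose separate values cannot be read. They lie 2919 bases apart on opposite strands. Their coding sequences of 978 bases each were identical at every base in the RefSeq annotation of TAIR10.1, so that 879 of 879 windows of 100 bases, the length of the reads, held no difference. The first 100 coding bases of each are shown because a read from them fits both genes; capitals would mark differing bases, and there are 0.

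AT1G05240, chr1:1521202-1521301, plus strand: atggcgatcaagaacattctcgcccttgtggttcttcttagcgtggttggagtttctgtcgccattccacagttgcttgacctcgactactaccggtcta
AT1G05250, chr1:1527070-1527169, minus strand: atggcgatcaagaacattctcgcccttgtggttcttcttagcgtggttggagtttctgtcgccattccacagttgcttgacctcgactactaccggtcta

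Only sequence outside the coding part could assign reads to one of these genes, and how the authors assigned such reads is not given in the sources used here. The near-equal counts of 589 and 602, and of 24 and 24, are therefore best read as 1 value for the pair. With 1 gene of each pair of at least 90% protein identity left out, 15 of 47 members were at least 2-fold lower and 4 higher. The shares of all genes were 10.5% and 9.84%.

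Several genes that mark root hairs outside the family were also lower in replicate 2. The marker lists were chosen with earlier results of these data known, so their counts are only a description. Of 7 root hair markers 4 were at least 2-fold lower and 0 higher, against 10.5% and 9.84% of all genes. Their summed level was 93.6 TPM in replicate 1 and 31.1 TPM in replicate 2, and no marker was at 0. The wall protein gene LRX1 had 15.8 and 2.32 TPM, and the expansin genes EXPA7 and EXPA18 had 17.7 and 4.20 TPM and 25 and 6.14 TPM, all past 2-fold. SHV2, the other gene past 2-fold, had 7.81 and 2.92 TPM. The 3 markers within 2-fold were the transcription factor genes RHD6 and RSL4, which start root hair growth, and the oxidase gene RHD2, with scaled counts 1.64-fold, 1.94-fold and 1.63-fold lower. Of 6 genes listed as root markers 1 was at least 2-fold lower and 0 higher, against 10.5% and 9.84% of all genes. All 6 log2 differences were below 0, from -1.47 to -0.22, with none of the genes at 0. Their sums were 91.7 and 65.5 TPM, of which SCR alone gave 58.3 and 48.1 TPM, while PLT1 and PLT2 stayed below 1 TPM. How far these genes mark only the root in whole seedlings was not tested. The gene past 2-fold was EIR1, the root auxin carrier PIN2, with 19.3 and 6.95 TPM. The 4 leaf markers summed to 10366 and 10647 TPM with 0 of 4 past 2-fold. The part of root or root hair content in the differences of the peroxidases was not tested.

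In the root tip group 2 of 3 members were at least 2-fold lower in replicate 2, against 10.5% of all genes, and 1 lay within 2-fold. The 3 members are known as targets that the transcription factor UPBEAT1 represses where root cells pass from division to elongation. AT4G11290 (chromosome 4, 6869953 to 6871661) had 29.1 TPM in replicate 1 and 3.31 TPM in replicate 2, from 491 and 33 counts, 8.55-fold lower (log2 interval -3.65 to -2.59). AT5G17820 (chromosome 5, 5887906 to 5890193) had 85.2 and 36.1 TPM from 1681 and 413 counts, 2.34-fold lower (interval -1.38 to -1.07). AT4G16270 had 37 and 11 counts, 1.93-fold lower with an interval of -2.07 to 0.05, and its span overlaps another gene. RCI3 (AT1G05260), named for its induction by cold, lies 2532 bases from AT1G05250 and had 65.1 and 28.8 TPM, 2.25-fold lower (interval -1.36 to -0.98).

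The immunity group held a pair of neighbours that differed in opposite directions. PRXCA (AT3G49110, chromosome 3, 18200664 to 18203142) and PRXCB (AT3G49120, chromosome 3, 18207651 to 18210132) encode the apoplastic peroxidases best known for the oxidative burst after contact with microbes. PRXCA had 27.2 TPM in replicate 1 and 6.07 TPM in replicate 2, from 516 and 69 counts. PRXCB had 108 and 268 TPM, from 1921 and 2851 counts. PRXCA was thus 4.30-fold lower in replicate 2 (log2 difference -2.10, interval -2.49 to -1.74) and PRXCB 2.58-fold higher (1.37, interval 1.29 to 1.45). Their proteins were 92.7% identical, but the coding sequences differed at 99 aligned bases and 12 of 966 windows of 100 bases (1.24%) held no difference. The 100-base stretch within 1 exon that separates the genes best is shown, with the 20 differing bases in capitals.

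PRXCA, chr3:18200782-18200881, plus strand: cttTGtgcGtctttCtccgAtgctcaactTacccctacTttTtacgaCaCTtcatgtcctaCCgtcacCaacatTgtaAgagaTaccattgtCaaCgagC
PRXCB, chr3:18207885-18207984, plus strand: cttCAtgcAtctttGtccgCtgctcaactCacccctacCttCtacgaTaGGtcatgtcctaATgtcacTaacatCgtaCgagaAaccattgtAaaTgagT

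A read of this length from most of the coding sequence can thus be placed in PRXCA or PRXCB. AT3G32980, with proteins 89.0% identical to PRXCB and 87.9% to PRXCA, differed from neither gene by fewer than 165 coding bases and lay within 2-fold. PER4 (AT1G14540), a peroxidase gene induced by microbial elicitors, was low in both libraries with 2.23 and 2.37 TPM, and its neighbour AT1G14550 was near 0.

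Members linked to lignin went in both directions. Lignin is the phenolic polymer of vessel and fibre walls, and peroxidases and laccases oxidise its precursors. Prx37 (AT4G08770, chromosome 4, 5598115 to 5600312) had 21.6 TPM in replicate 1 and 2.10 TPM in replicate 2, from 350 and 20 counts, 10.1-fold lower (log2 interval -4.06 to -2.68). PRX52 (AT5G05340, chromosome 5, 1578951 to 1580875), known from lignin of stem fibres, had 0.540 and 5.76 TPM, from 11 and 62 counts. It was 9.81-fold higher in replicate 2 (log2 difference 3.29, interval 2.36 to 4.37), the largest difference in that direction among the 50 members with a call. The other members of the group outside the root hair pair lay within 2-fold. AT4G33420 had 51.3 and 44.4 TPM, AT2G22420 had 24.3 and 29.4 TPM, AT4G36430 had 17.6 and 16.7 TPM, and AT2G41480 had 14.5 and 6.93 TPM. Of the 8 members of the group, 2 were at least 2-fold lower, 1 higher and 5 within 2-fold, with a median log2 difference of -0.11. That is 25% lower and 12.5% higher, against 10.5% and 9.84% of all genes. The lignin laccases, which are no peroxidases, had 0 of 3 lower and 1 of 3 higher, against the same shares of all genes. The higher laccase was LAC17 with 8.80 and 18.5 TPM.

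Prx37 lies 3840 bases from AT4G08780 on the opposite strand, and both were lower in replicate 2. AT4G08780 had 7.01 and 1.40 TPM from 106 and 11 counts, 5.54-fold lower (log2 interval -3.51 to -1.57). Their proteins were 92.8% identical, and 65 coding bases differed. Of 942 windows of 100 bases 2 held no difference. The stretch within 1 exon with the most differences is shown, with its 11 differing bases in capitals.

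Prx37, chr4:5598627-5598726, minus strand: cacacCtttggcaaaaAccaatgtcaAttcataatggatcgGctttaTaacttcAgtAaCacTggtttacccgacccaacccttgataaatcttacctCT
AT4G08780, chr4:5607735-5607834, plus strand: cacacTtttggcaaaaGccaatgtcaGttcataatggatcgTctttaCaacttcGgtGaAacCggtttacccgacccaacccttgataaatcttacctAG

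Genes known from the tapetum, the nursing layer of the anther, and from the seed coat had less than 10 TPM in both libraries. AT1G44970 had 9.15 and 5.13 TPM and AT4G16270 had 2.64 and 1.26 TPM, both extensin peroxidases of the tapetum. AT3G50990, which loosens the outer wall of seed coat cells, had 0.299 and 0.255 TPM. None of these genes with a call was past 2-fold.

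Among the 37 members without a role group, 30 had a call, of which 6 were at least 2-fold lower and 3 higher. These were 20% and 10% of them, against 10.5% and 9.84% of all genes, so the share higher was near that of all genes. AT5G19890 had 138 and 7 counts, 6.92 and 0.598 TPM, and was 11.3-fold lower (log2 interval -4.84 to -2.42). AT1G49570 had 42 and 5 counts and AT2G43480 had 26 and 3, 4.83-fold and 4.98-fold lower with wide intervals. AT2G34060 and AT4G31760 were 2.18-fold and 2.15-fold lower, and the interval of AT4G31760 reached 0.05 on the log2 scale. On the other side, AT2G24800 had 1.62 and 6.04 TPM, 3.70-fold higher from 24 and 51 counts. AT3G17070 had 5.91 and 17.5 TPM, 3.04-fold higher from 106 and 185 counts. AT5G14130, whose span overlaps another gene, had 6.16 and 13.2 TPM, 2.08-fold higher with an interval of 0.68 to 1.43. The 5 members of this class with a mean of at least 100 TPM all lay within 2-fold: PRXR1 and AT1G71695 were 1.61-fold and 1.55-fold higher, and AT3G32980, AT2G38380 and AT4G30170 were 1.33-fold, 1.29-fold and 1.83-fold lower.

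Sequence and position set some members together apart from their values. The encoded proteins had 310 to 404 residues with a median of 330, and the median identity over 1711 pairs was 37.1%. A coding region in 4 exons was found in 44 members, in 3 exons in 8 and in 2 exons in 3. The 3 members with 2 coding exons were AT1G30870, AT1G34510 and AT4G26010, all in the root hair group. The 3 with a single coding exon, AT1G24110, AT3G28200 and AT4G17690, were unlike in level, AT3G28200 with 71.5 and 85.5 TPM and the others with at most 2 counts in a library. Members stood within 10 kb of each other in 11 pairs that involve 21 genes, and in 6 of the 11 both genes had the same call. The 6 include AT1G05240 and AT1G05250, whose separate values cannot be read. Pairs that hold AT1G14550, AT2G18140 or AT5G19880, which carry no call, could not be compared. AT2G38380 and AT2G38390, 1097 bases apart and 89.4% identical, differed between the libraries by -0.37 and -0.01. AT4G37520 and AT4G37530, 1534 bases apart and 89.4% identical, differed by 0.37 and -0.19. AT5G06730 and PA2 (AT5G06720), 949 bases apart, had 110 and 100 counts and 125 and 38 counts. After scaling they differed in opposite directions, by 0.66 and -0.92, both within 2-fold. AT2G18140 and AT2G18150 were 88.5% identical but far apart in level, the first with 0.533 and 0.786 TPM and the second with 19.6 and 28.0 TPM.

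**Figure D3:**
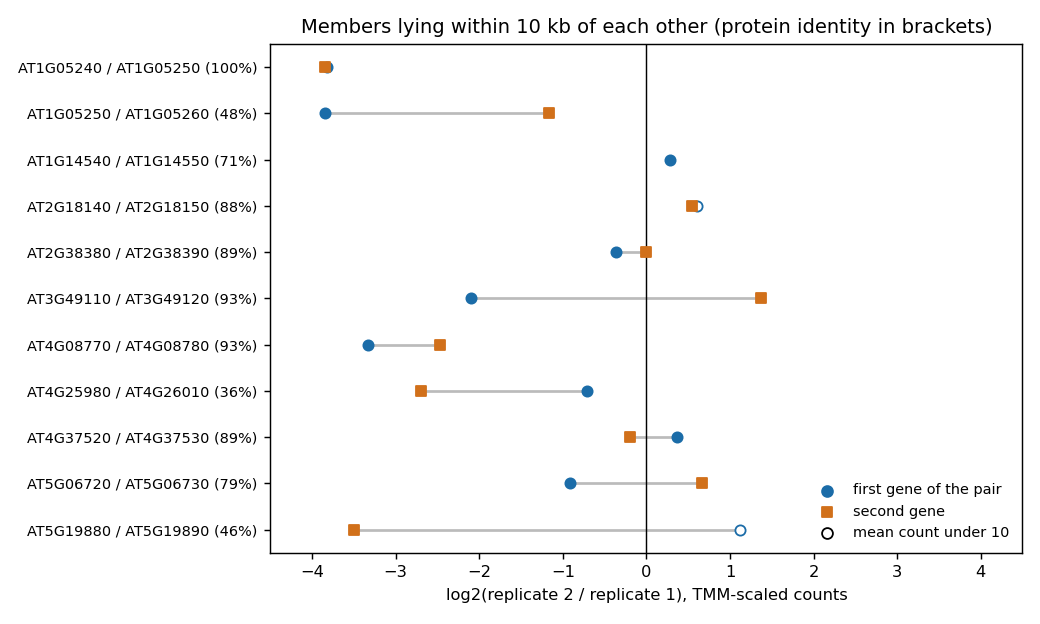
Log2 difference (replicate 2 over replicate 1, TMM-scaled counts) of the genes in each of the 11 pairs of members within 10 kb, the first gene as a blue circle and the second as an orange square, open where the mean count was below 10. AT1G14550 has no ratio and is not drawn; PRXCA and PRXCB (AT3G49110 and AT3G49120) lie on opposite sides of 0 with the longest gap among pairs whose genes both have a call.

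Of the 14 class III peroxidase genes outside the list most were also lower in replicate 2, and whether they differ from the 59 was not tested. The 14 genes summed to 310 TPM in replicate 1 and 183 TPM in replicate 2. Of 13 with a mean count of at least 10, 8 were at least 2-fold lower in replicate 2, 1 was higher and 4 were within 2-fold. The shares of all genes lower and higher were 10.5% and 9.84%. The median log2 difference of the 13 was -1.23. Among the 8, AT5G24070 had only 25 and 2 counts and reached the minimum through replicate 1 alone. Its log2 difference was -2.84 with a wide interval of -5.97 to -0.84. RHS19 (AT5G67400) and RHS18 (AT5G22410), both named for their specificity to root hairs, had 61.8 and 10.6 TPM and 15.5 and 2.83 TPM. RHS19 is the closest relative of AT3G49960, with 81.2% protein identity, and was 5.59-fold lower against 6.66-fold. AT5G64100 had 63.6 and 18.9 TPM. PER64 (AT5G42180), which polymerises lignin in the Casparian strip of the root endodermis, had 18.5 and 7.58 TPM, 2.34-fold lower. AT5G66390, linked to stem lignin, had 33.9 and 14.1 TPM. The higher one was AT5G51890, known from the vessels of the xylem, with 36.7 and 76.6 TPM, 2.14-fold higher.

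The NADPH oxidases make the superoxide from which the hydrogen peroxide for these enzymes derives. Of their 8 genes with a call 4 were at least 2-fold lower in replicate 2 and 0 higher, against 10.5% and 9.84% of all genes. The median log2 difference was -0.95, while the summed level of the list was 113 TPM in replicate 1 and 110 TPM in replicate 2. RBOHB had 3.40 and 0.728 TPM, RBOHA had 2.05 and 0.890 TPM, and AT4G25090 had 7.82 and 1.22 TPM. RHD2, the oxidase of root hair tips that also stands in the root hair marker list, had 17.6 and 10.4 TPM, 1.63-fold lower. RBOHD, the main oxidase of the immune burst, was the most abundant of the list at 59.2 and 63.8 TPM and differed by 0.15 on the log2 scale. AT1G64060 had 14.8 and 20.9 TPM and AT1G19230 had 6.63 and 11.2 TPM, with log2 differences of 0.52 and 0.79.

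**Figure D4:**
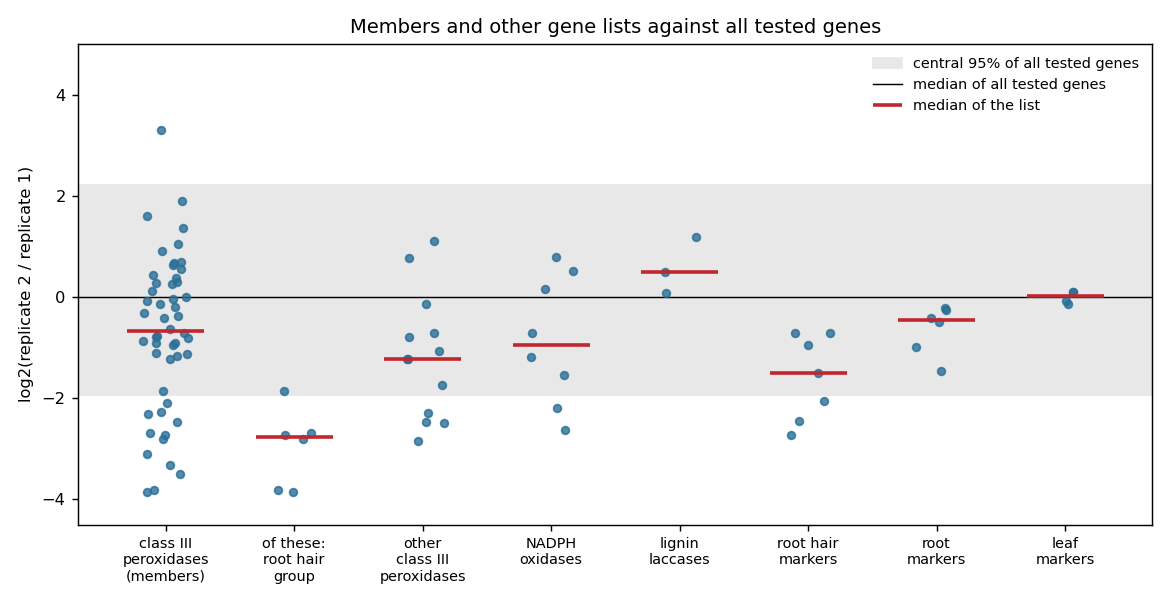
Log2 difference (replicate 2 over replicate 1, TMM-scaled counts) of each gene with a mean count of at least 10 in the peroxidase members, their root hair group and 6 other lists, with the list median in red. The grey band holds the central 95% of all 20568 genes, -1.95 to 2.21, and the black line is their median. Below the band lie 5 of the 6 root hair members, with AT1G05240 and AT1G05250, best read as 1 value, drawn as 2 points. The 4 leaf markers lie close to 0.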

How the data were processed

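RNA-seq libraries of 1 group (2 replicates) were used. Per the submitters' processing notes, FastQC, Trimmomatic, TopHat and Picard and the build TAIR10 were used, without versions or roles; the counting tool is not given in the sources used here. The labels' protocols name a stranded and an unstranded kit for both libraries, so antisense reads may be included. The raw counts per gene are as deposited by the authors, not normalized. The authors' TPM column is proportional to their deposited FPKM column in each library, and FPKM was not used further. Loci in the files start at 0 and are given here 1-based. Of the gene identifiers 97.8% matched the annotation of TAIR10.1; 10573 genes had the same start and end there, along all 5 chromosomes, so its sequence was read for the coding regions.

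Counts were scaled by TMM (edgeR 4.0.16, R 4.3.3) over genes with a mean count of at least 10, with factors of 1.03 and 0.968. A member was called lower or higher from 2-fold, with Clopper-Pearson intervals of the ratio (SciPy 1.17.1). These intervals, and limits for a count of 0, hold counting error alone, as reads carry no molecular identifiers. The computation was tested on simulated data. Proteins were translated from RefSeq coding sequences and aligned globally (Biopython 1.88, BLOSUM62, gap open 10, extend 0.5). Members, lists and role groups were chosen with earlier results of these data known. Named were the 12 highest members, all role groups, members with an interval past 2-fold, close pairs (at least 90% identity), members at 0, and members whose deposited and count-based TPM differed over 2-fold; others named were chosen after their values were seen. Tried as alternatives were DESeq2 1.42.0 for the scaling, total counts, other minimums and folds, a prior count of 2, and TPM from counts and exon length.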

Additional observations from a re-analysis of the deposited data

How the results depend on the processing

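The 17 lower members became 12 to 20 under other scalings, minimums, a prior count of 2, deposited TPM, 3-fold (13) or with 1 gene of each close pair left out, and 26 at 1.5-fold. The 12 were found among 44 members with at least 10 counts in each library, against 8.23% of all genes. The 20 were found with total counts and with deposited TPM, against 12.2% and 11.3% of all genes. At a mean count of at least 50, 14 of 41 members were lower, against 7.94%. The shares of all genes were 4.38% at 3-fold and 21.2% at 1.5-fold. The 5 higher members became 3 at a mean count of at least 50, against 8.86% of all genes, and 7 with no minimum, against 11.1%. They became 4 with total counts, against 8.70%, and 4 with 1 gene of each close pair left out, against 9.84%. At 1.5-fold they were 9 and at 3-fold 3, against 18.8% and 4.94% of all genes. The median log2 difference of -0.68 was -0.77 with total counts, -0.42 with no minimum, -0.34 with a minimum of 10 counts in each library and -0.76 with deposited TPM, and was negative in every alternative run. The share of transcripts was 0.285% with TPM from counts and exon length, against 0.261%; with 1 library alone it was 0.257% to 0.264%. The median level was 2.99 to 3.95 with 1 library alone. At 80% identity 10 pairs of members counted as close, against 3. Of the 66 values of the 22 called members under other scalings or deposited TPM, 0 reversed, and 1 left its counting interval: PRXCB with total counts, 1.28 against 1.37. Deposited and count-based TPM differed by over 1.5-fold in both libraries for 4 members: AT1G05240, AT3G28200, AT4G31760 and AT1G14550, the last at 0 and 1 counts. No paired analysis was possible because there is 1 group. With 1 library of each number, the spread between separate cultures could not be estimated, and counts under about 10 leave ratios undetermined.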
